A study of Rattus norvegicus with 8 samples.

Results

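The 6 libraries of cultured rat enteric glial cells (EGCs) that had been exposed to lipopolysaccharide (LPS) were pooled, whatever the pretreatment, and set against the 2 libraries of Control cells. They are 6 of the 8 libraries analysed. The members were chosen by treatment alone. The comparison asks which changes with LPS held across pretreatments. It holds 3 LPS-exposed groups of 2 libraries each. LPS cells received 1 µg/mL LPS. THC + LPS cells received 0.1 µg/mL THC for 1 h before the same LPS. THC-COOH + LPS cells received 10 nM THC-COOH for 1 h before the same LPS. Control cells, also 2 libraries, received neither LPS nor a cannabinoid. The labels give 24 h in LPS, but the sources used here are not uniform on that time, and the unit of the THC dose is misprinted in the labels. Thus 4 of the 6 LPS-exposed libraries also carried a cannabinoid, and the doses of THC and THC-COOH differ, so neither compound is compared with the other at a matched dose. All cells were of the line EGC/PK060399egfr, a single line grown in medium with serum, and poly(A) RNA was read at its 3' ends by a bulk form of MARS-seq. Separate cultures are not stated for the libraries of a group, so the p-values measure only the spread between these libraries, which may be technical. With the 6 LPS-exposed libraries pooled, that spread also takes in differences between the pretreatments.

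EGCs are the supporting cells of the gut's own nervous system. They surround enteric neurons, contact the epithelium and vessels, and are known to react to inflammation by making S100B, GFAP and cytokines. LPS, a component of the outer membrane of Gram-negative bacteria, is sensed through the TLR4 receptor complex, which leads to NF-κB activity and to transcription of cytokine and chemokine genes. THC, the main psychoactive cannabinoid of cannabis, acts on the cannabinoid receptors CB1 and CB2, and THC-COOH is the carboxylated end product of its metabolism in the liver. The deposited table lists genes by Ensembl identifier only. Of 47357 rat genes in the RefSeq annotation GRCr8, 0 carried one of these identifiers. S100b, Gfap, Tnf, Il6, Ccl2, Nfkbia, the other genes of 27 lists and the markers of glia or of other cell types were therefore not looked up, the labelled cell type was not checked, and no sequence is shown. Of the genes below, 4 are given by identifier, 2 in each direction, and the others are described by their values.

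General measures did not set the LPS-exposed libraries apart from the Control libraries, though total counts varied widely. Total counts lay between 545779 (LPS library 2) and 1559935 (THC + LPS library 1) in LPS-exposed cells, against 752742 and 778832 in Control cells. Between 9282 and 9717 genes had a count in the LPS-exposed libraries, against 9429 and 9468 in Control. The 10 most abundant genes held 6.72% to 7.07% of counts in LPS-exposed cells and 6.89% and 6.90% in Control. None of these 3 measures separated the groups (exact permutation test over all 28 splits, two-sided p between 0.571 and 0.643, with 0.0357 the smallest p possible). The Control libraries did not lie close together. On the first principal component, which held 23.9% of the variance of well counted genes, Control library 1 stood at 12.9, while Control library 2 stood at 0.228, near the upper end of the LPS-exposed libraries. LPS library 2 stood at -8.67 and the other 5 LPS-exposed libraries between -1.9 and 0.382. On the second component (18.6%) the THC-COOH + LPS libraries stood at 6.46 and 8.75 and the THC + LPS libraries at -3.8 and -6.04. The LPS libraries stood at 2.34 and -2.31 there, and the Control libraries at -2.47 and -2.92. LPS library 2, the library with the lowest total, also stood apart on the third component, at 8.82, where the others ran from -6.86 to 4.99. The edgeR counts of genes called below are therefore given with and without Control library 1 and LPS library 2, and other results only in part.

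Exposure to LPS left little that could be told from the spread of these libraries, which when pooled includes differences between pretreatments. Of 9848 genes listed, 7875 were tested, those whose highest raw count over the libraries was above 10. Differentially expressed genes (DEGs) were those with an adjusted p under 0.05 and a fold change above 1.6 either way. Pooled over pretreatments there were 2 DEGs (0.0254% of the genes tested), 0 higher and 2 lower with LPS, by edgeR's quasi-likelihood test. Neither was lower in all 6 LPS-exposed libraries than in both Control libraries, so 0 DEGs held whatever the pretreatment. Without adjustment, 450 genes (5.71%) had a p under 0.05, 248 of them higher and 202 lower. Without Control library 1 there were also 2 DEGs, and both were then lower in all 6 LPS-exposed libraries than in the remaining Control library, while without Control library 2 there was 1. Without LPS library 2 there was 1 DEG, lower with LPS, and 0 held in all remaining LPS-exposed libraries. A fit with 1 coefficient per group, the 3 groups weighted equally, keeps pretreatment differences out of the spread. It gave 5 DEGs, 0 higher and 5 lower, of which 1 held in all 6 LPS-exposed libraries. In bulk RNA, a change per cell and a change in the number of cells that express a gene cannot be told apart. DESeq2 called 0 DEGs with 228 genes under 0.05 before adjustment and a smallest adjusted p of 0.824. The voom method of limma also called 0, with 404 genes under 0.05 before adjustment and a smallest adjusted p of 0.121. Over all genes tested the median log2 fold change was 0.00526, 50.8% were higher, and the median size of a change was 0.165 on the log2 scale. In the plot of change against level, the genes whose libraries did not overlap lie close to 0 at high levels.

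**Figure D1:**
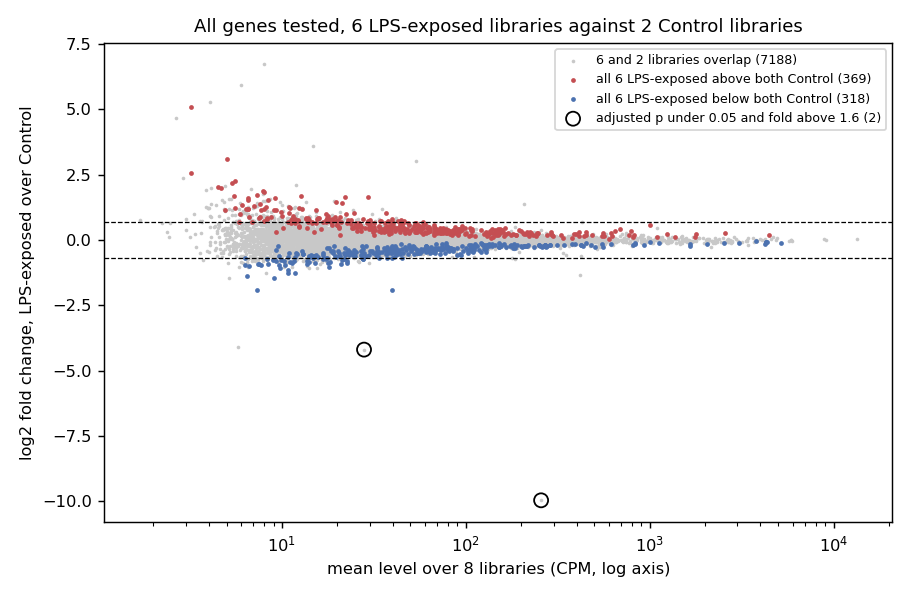
Each point is 1 of the 7875 genes tested, with its mean level over 8 libraries in CPM (counts scaled to the library total, log axis) and its log2 fold change, LPS-exposed over Control. Red genes (369) had all 6 LPS-exposed libraries above both Control libraries, blue genes (318) had all 6 below, grey genes (7188) overlapped, the dashed lines mark a fold of 1.6, and the circles mark the 2 DEGs, both of them in the overlapping group.

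ENSRNOG00000031590 had the smallest p of all genes. Its level was 1.14 CPM in LPS library 1 and 3.93 CPM in THC-COOH + LPS library 1, and 0 CPM in the other 4 LPS-exposed libraries, against 2050 CPM in Control library 1 and 0 CPM in Control library 2. In raw counts this is 1 and 4 reads in those LPS-exposed libraries, against 1526 reads in Control library 1. So a single Control library carried nearly all of its reads, and the other Control library was at 0 like most LPS-exposed libraries. The mean was 0.845 ± 1.58 CPM in LPS-exposed cells and 1020 ± 1450 CPM in Control cells (SD, n = 6 and 2). The log2 fold change was -9.96 (SE 1.09, 95% interval -12.22 to -7.69, edgeR adjusted p = 3.63e-05). Without Control library 1, the gene no longer had a count above 10 and was not tested. With Control library 1 as the only Control, the fall was -10.97 on the log2 scale, with no Control spread to set it against. The adjusted p was 0.999 by DESeq2, with an SE of 3.79, and 0.921 by voom. The edgeR interval borrows spread from other genes and understates the disagreement of the Control libraries.

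ENSRNOG00000029996, the other DEG, had the opposite Control library high. It had 3.41 and 5.57 CPM in LPS, 3.84 and 4.15 CPM in THC + LPS, and 8.85 and 5.48 CPM in THC-COOH + LPS, against 0 CPM in Control library 1 and 192 CPM in Control library 2. Every LPS-exposed library thus lay between the 2 Control libraries. Raw counts were 3 to 9 reads in the LPS-exposed libraries, against 0 and 148 reads in Control. The log2 fold change was -4.19 (SE 0.683, 95% interval -5.61 to -2.78, edgeR adjusted p = 0.0119), and the adjusted p was 0.999 by DESeq2 and 0.955 by voom. Here too the edgeR interval understates the disagreement of the Control libraries, and the SE was 1.46 by DESeq2. The log2 fold change was -5.18 without Control library 1, again with no Control spread, while without Control library 2 the gene was not tested. The next gene by p, chosen for mention after its values were seen, was another in which the Control libraries disagreed, and its adjusted p was 0.123.

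Among the genes higher with LPS, none passed the test, and the 2 with the smallest p did separate the libraries. ENSRNOG00000014117 had 969 and 1210 CPM in LPS, 1060 and 789 CPM in THC + LPS, and 1270 and 1250 CPM in THC-COOH + LPS, against 719 and 748 CPM in Control. The lowest LPS-exposed library, THC + LPS library 2, lay just above the higher Control library, and the THC-COOH + LPS libraries were the highest. The mean was 1090 ± 188 CPM in LPS-exposed cells and 734 ± 20.6 CPM in Control cells (SD, n = 6 and 2), a fold of 1.49. The log2 fold change was 0.57 (SE 0.127, 95% interval 0.31 to 0.83, edgeR adjusted p = 0.319). Without Control library 1 it was 0.54, and without Control library 2 it was 0.60. Across 21 alternatives it stayed between 0.45 and 0.68, and the edgeR adjusted p was 0.00866 with the 3 groups weighted equally, 0.00417 without THC + LPS library 2 and 0.000574 without the THC + LPS group, while the fold stayed under 1.6 in all of them. In the pooled comparison this was the smallest adjusted p of any gene whose libraries did not overlap.

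ENSRNOG00000009068 had 703 and 685 CPM in LPS, 840 and 743 CPM in THC + LPS, and 643 and 813 CPM in THC-COOH + LPS, against 572 and 531 CPM in Control. All 6 libraries lay above both Control libraries, with the lowest and the second highest in the same group, THC-COOH + LPS. The mean was 738 ± 76.3 CPM in LPS-exposed cells and 551 ± 28.5 CPM in Control cells (SD, n = 6 and 2), a fold of 1.34. The log2 fold change was 0.42 (SE 0.101, 95% interval 0.21 to 0.63, edgeR adjusted p = 0.585). Across 21 alternatives of processing it stayed between 0.37 and 0.48 and passed in 0 of them. For both genes the interval of the difference leaves out 0, which follows from their choice by smallest unadjusted p and is no further support. In the pooled comparison neither passed the adjusted p or the fold.

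**Figure D2:**
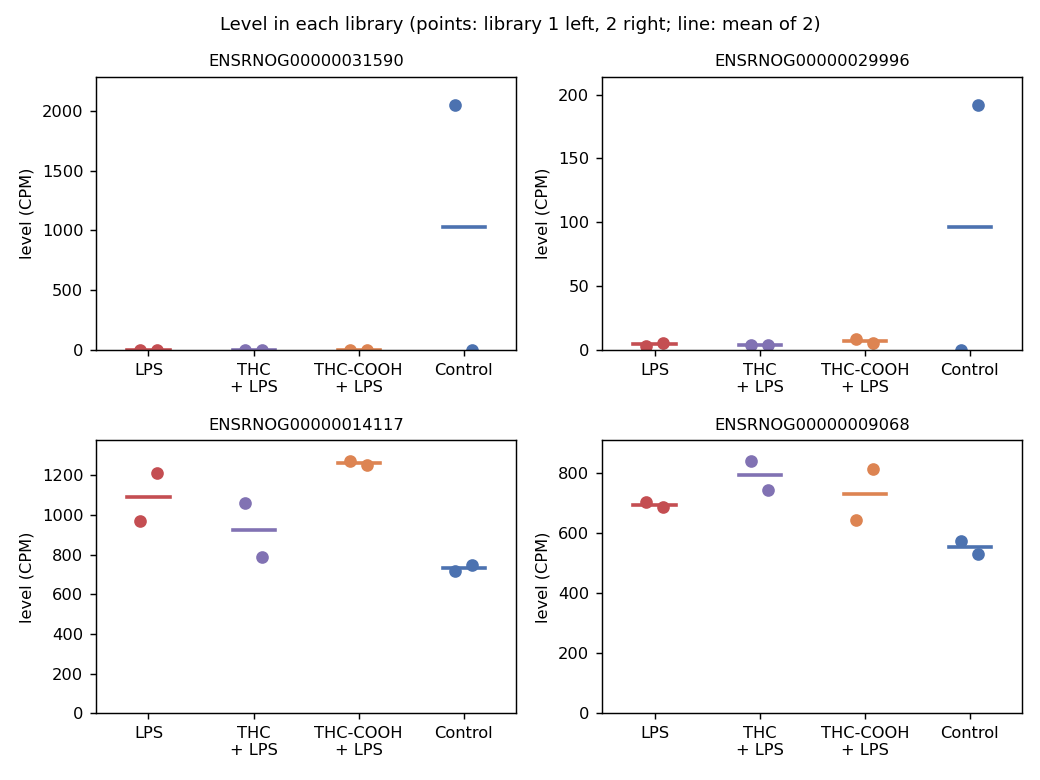
Level in CPM of the 2 genes with the smallest p in each direction, by group, with library 1 left and library 2 right in each group and a line at their mean. The upper genes are high in a single Control library, 2050 CPM in library 1 for ENSRNOG00000031590 and 192 CPM in library 2 for ENSRNOG00000029996, and the lower genes have all 6 LPS-exposed libraries above both Control libraries.

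Genes whose LPS-exposed and Control libraries did not overlap are described next, without a test of the list. There were 687 (8.72% of the genes tested), 369 with all 6 LPS-exposed libraries above both Control libraries (4.69%) and 318 with all 6 below (4.04%). Of these, 303 had an unadjusted p under 0.05, 178 higher and 125 lower, and 147 further genes with such a p overlapped. Over all genes tested the share with such a p was 5.71%. The median log2 fold change of the higher genes was 0.451 (quartiles 0.297 and 0.706), beside 0.00526 over all genes tested, and that of the lower genes was -0.379 (quartiles -0.54 and -0.234). With a single Control library to lie beyond, more genes qualify by construction, 1230 above (15.6%) and 1184 below (15%) without Control library 1, and 1241 above (15.8%) and 1187 below (15.1%) without Control library 2. Because a gene enters these lists by its direction, the medians describe the lists and test nothing. By group, the medians of the higher genes were 0.464 in LPS, 0.408 in THC + LPS and 0.432 in THC-COOH + LPS, and those of the lower genes were -0.386, -0.336 and -0.359 in the same order. These 3 sets of values share the Control libraries.

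Large changes among these genes were at low counts, as they were over all genes tested. A fold above 1.6 was seen in 106 of the 369 higher and 45 of the 318 lower genes, and in each of the 3 groups in 50 and 18. Their median mean count was 11.9 reads for the higher and 10.1 for the lower genes, against 36 over all genes tested. A mean count of at least 50 was reached by 1 of the 106 and 0 of the 45. Over all 7875 genes tested, 409 had a fold above 1.6, 354 of them under 20 reads, and 122 of those 354 were non-overlapping genes. At a mean count of at least 200, 44 genes were higher in all 6 LPS-exposed libraries, with a median log2 fold change of 0.202 and at most 0.572, and 44 were lower, with a median of -0.18 and at the lowest -0.279. None of these passed a fold of 1.6, and 25 of the higher and 17 of the lower genes had an unadjusted p under 0.05. Among all genes of 200 to 1000 reads 7.58% had such a p, and from 1000 reads on 8.82%. As the genes were chosen by non-overlap, which favours a small p, these counts test nothing.

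Examples show what such separation looked like. They are the 5 non-overlapping genes in each direction with the next smallest p, chosen for mention after results were known. An abundant gene, with the sixth smallest p of all, had 3020 and 2800 CPM in LPS, 2420 and 2610 CPM in THC + LPS, and 2790 and 2470 CPM in THC-COOH + LPS, against 2210 and 2190 CPM in Control. Its log2 fold change was small, 0.29 (SE 0.0725, edgeR adjusted p = 0.755). A gene of moderate level had 47.7 and 44.5 CPM in LPS, 40.3 and 41.5 CPM in THC + LPS, and 46.2 and 45 CPM in THC-COOH + LPS, against 26.8 and 23.4 CPM in Control. Here the 6 libraries lay within a narrow band well above both Control libraries, and the log2 fold change was 0.81 (SE 0.23, edgeR adjusted p = 0.829). A gene of few reads had 15 to 43 reads in the LPS-exposed libraries, against 6 and 8 reads in Control, with a log2 fold change of 1.41 (SE 0.381, edgeR adjusted p = 0.755). The remaining 2 had log2 fold changes of 1.03 (SE 0.28, edgeR adjusted p = 0.755) and 0.45 (SE 0.127, edgeR adjusted p = 0.829). The first of these had 27.5 to 48.4 CPM in LPS-exposed cells, against 24.1 and 16.9 CPM in Control, and the other 158 to 187 CPM in LPS-exposed cells, against 137 and 118 CPM in Control.

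The 5 lower genes were less alike, and 3 of them had moderate levels and small changes. One of these had 87.5 and 92.8 CPM in LPS, 80.7 and 73.4 CPM in THC + LPS, and 92.4 and 75.7 CPM in THC-COOH + LPS, against 117 and 122 CPM in Control. The groups were apart by more than the spread within either, and the log2 fold change was -0.52 (SE 0.139, edgeR adjusted p = 0.755). Another had 85.2 and 83.5 CPM in LPS, 97.3 and 92.7 CPM in THC + LPS, and 75.7 and 72.4 CPM in THC-COOH + LPS, against 113 and 136 CPM in Control, with a log2 fold change of -0.55 (SE 0.146, edgeR adjusted p = 0.755). The last had 106 and 76.1 CPM in LPS, 102 and 96.9 CPM in THC + LPS, and 92.4 and 81.1 CPM in THC-COOH + LPS, against 134 and 130 CPM in Control. The log2 fold changes of these 3 genes lay between -0.75 and -0.38 in every LPS-exposed group. In the other 2 the groups lay further apart. One had 1 to 9 reads in the LPS-exposed libraries, against 13 and 12 reads in Control, with log2 fold changes of -2.5 in LPS, -3.14 in THC + LPS and -0.98 in THC-COOH + LPS. The other, the lower gene with the smallest p of these 5, was called in LPS and in THC-COOH + LPS and is described with the genes called by group.

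The depth set how far a change could be bounded. In genes with a mean count under 20, the 95% interval of the log2 fold change reached a median of 0.911 to either side, and 14.7% of 2411 genes had a fitted fold above 1.6. Between 20 and 50 reads the median reach was 0.522 and the share was 2.1% of 2333 genes. From 50 to 200 reads it was 0.329 and 0.215% of 2322 genes, from 200 to 1000 reads 0.224 and 0.149% of 673 genes, and from 1000 reads on 0.139 and 0% of 136 genes. The share of genes whose libraries did not overlap ran the other way, 7.34% in the lowest class and 13.2% in the highest. The interval left out a 1.6-fold change in either direction for 3702 of 7614 genes (48.6%), with 261 genes not included because their fitted change was under 0.01 on the log2 scale. That share was 0.505% under 20 reads, 41.4% from 20 to 50, 90.2% from 50 to 200, 98.6% from 200 to 1000 and 100% above. For genes under 20 reads, a change with LPS of that size was thus mostly not detectable at this depth, whereas for most genes above 50 reads it lay outside the interval.

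**Figure D3:**
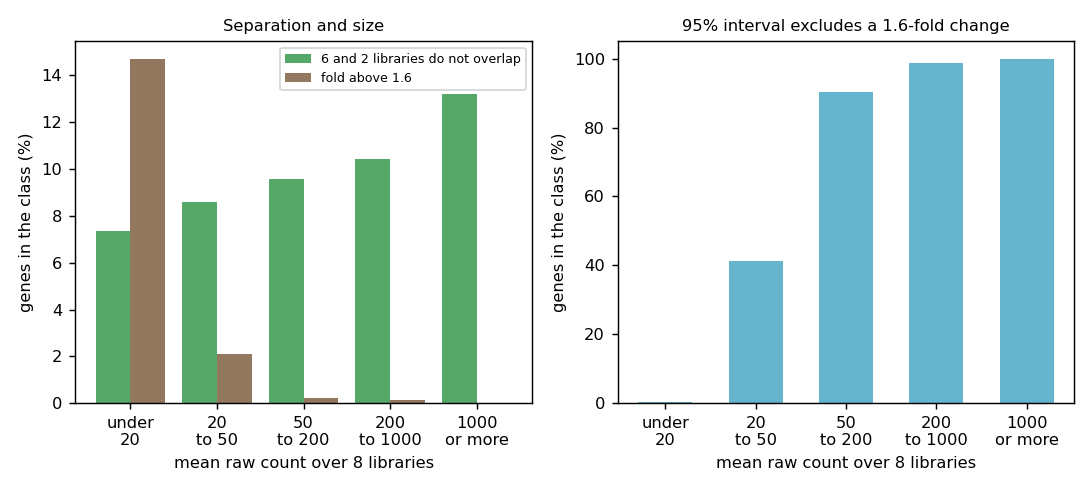
Genes by mean raw count over 8 libraries, with the share (%) of genes in a class that had no overlap of the 6 LPS-exposed and 2 Control libraries and the share with a fitted fold above 1.6 (left), and the share whose 95% interval excludes a 1.6-fold change (right). Non-overlap goes up with counts, 7.34% to 13.2%, large fitted changes go down, 14.7% to 0%, and the interval excludes 1.6-fold in 90.2% of genes at 50 to 200 reads.

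LPS-exposed libraries were about as far from Control libraries as from LPS-exposed libraries of another group. Over the 3131 genes that averaged 50 or more reads, the median absolute log2 difference was 0.139 to 0.183 in the 12 pairs of an LPS-exposed and a Control library (mean 0.167). It was 0.145 to 0.188 in the 12 pairs of libraries from different LPS-exposed groups (mean 0.165). Within a group it was 0.159 in LPS, 0.14 in THC + LPS, 0.143 in THC-COOH + LPS and 0.159 in Control. The pair of Control libraries was thus as far apart as many pairs across treatments. No test was made of these distances.

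Each LPS-exposed group was also set against Control, with the same 2 Control libraries in every comparison. LPS cells had 3 DEGs (0.0381%), 1 higher (0.0127%) and 2 lower (0.0254%). THC + LPS cells had 4 (0.0508%), 0 higher and 4 lower. THC-COOH + LPS cells had 6 (0.0762%), 4 higher and 2 lower. DESeq2 called 1, 1 and 3 DEGs for the same comparisons. Without Control library 1, LPS had 0 higher and 5 lower, THC + LPS 0 and 5, and THC-COOH + LPS 2 and 5. Without Control library 2 the 3 groups had 0 and 2, 0 and 6, and 2 and 4, so the balance of higher and lower calls in THC-COOH + LPS turned with either Control library left out. Without LPS library 2 they had 2 and 1, 1 and 7, and 4 and 2. Genes with an unadjusted p under 0.05 numbered 564, 420 and 664, and the median size of a change was 0.204, 0.182 and 0.208 on the log2 scale. Together these were 10 genes, of which 1 was a pooled DEG and 7 had an unadjusted p under 0.05 in the pooled comparison. In 3 of the 10 the 6 LPS-exposed libraries did not overlap with Control. In 8 of the 10 the LPS-exposed groups differed among themselves, by an F test over the 3 groups in edgeR (adjusted p under 0.05). Over all genes tested, the shares were 5.71% for the unadjusted pooled p, 8.72% for non-overlap and 0.406% for the F test. The 10 genes were picked by calls in the same fit that gave the F test, so these counts describe them and test nothing.

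Called in all 3 groups was ENSRNOG00000031590, the gene of Control library 1, with a log2 fold change of -10.24 in LPS (edgeR adjusted p = 0.0176) and -8.85 in THC-COOH + LPS (edgeR adjusted p = 0.00943). In THC + LPS both libraries were at 0, so the fitted value is not a bound. ENSRNOG00000029996 had -4.47 in LPS, -4.57 in THC + LPS and -3.71 in THC-COOH + LPS, with edgeR adjusted p between 0.0585 and 0.165. ENSRNOG00000014117 was called in THC-COOH + LPS, with a log2 fold change of 0.78 (edgeR adjusted p = 0.00101). In LPS it had 0.57 (edgeR adjusted p = 0.0462), which is under the fold of 1.6, and in THC + LPS 0.34 (edgeR adjusted p = 0.694). The groups were not shown to differ in this gene (edgeR F test, adjusted p = 0.218).

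The other 8 genes were each called in 1 or 2 groups. The gene called in LPS and in THC-COOH + LPS had 10.2 and 5.57 CPM in LPS, 64.7 and 40.1 CPM in THC + LPS, and 3.93 and 3.29 CPM in THC-COOH + LPS, against 106 and 83.1 CPM in Control. All 6 libraries were below Control, but on the log2 scale THC + LPS was closer to Control than to the other groups, and the 3 groups differed (edgeR F test, adjusted p = 9.57e-06). Its log2 fold change was -3.47 in LPS (edgeR adjusted p = 1.04e-05), -0.78 in THC + LPS (edgeR adjusted p = 0.567) and -4.65 in THC-COOH + LPS (edgeR adjusted p = 1.47e-07). Pooled over the groups it had -1.93 (SE 0.509, edgeR adjusted p = 0.755). The gene called higher in LPS had 56.8 and 37.1 CPM in LPS, 10.9 and 26.3 CPM in THC + LPS, and 14.7 and 14.3 CPM in THC-COOH + LPS, against 8.05 and 7.79 CPM in Control. Again all 6 libraries were on 1 side of Control, while the size differed among the groups (edgeR F test, adjusted p = 0.044).

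Besides ENSRNOG00000031590, 3 genes were called lower in THC + LPS, and in each of them the 6 LPS-exposed libraries overlapped with Control. The one with the smallest p had 172 and 44.5 CPM in LPS, 37.1 and 55.4 CPM in THC + LPS, and 254 and 359 CPM in THC-COOH + LPS, against 284 and 222 CPM in Control. LPS library 2 was as low as the THC + LPS libraries while LPS library 1 was not. Its log2 fold changes were -2.53 in THC + LPS (edgeR adjusted p = 0.000211), -1.10 in LPS (edgeR adjusted p = 0.255) and 0.27 in THC-COOH + LPS (edgeR adjusted p = 0.823). Another had 435 and 106 CPM in LPS, 68.5 and 126 CPM in THC + LPS, and 560 and 932 CPM in THC-COOH + LPS, against 722 and 433 CPM in Control, again with LPS library 2 near the THC + LPS libraries. Besides ENSRNOG00000014117, 3 genes were called higher in THC-COOH + LPS. The one with the highest level had 1140 and 1100 CPM in LPS, 962 and 903 CPM in THC + LPS, and 1300 and 1620 CPM in THC-COOH + LPS, against 742 and 973 CPM in Control. THC + LPS library 2 and THC + LPS library 1 were both below the higher Control library, so the groups overlapped.

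**Figure D4:**
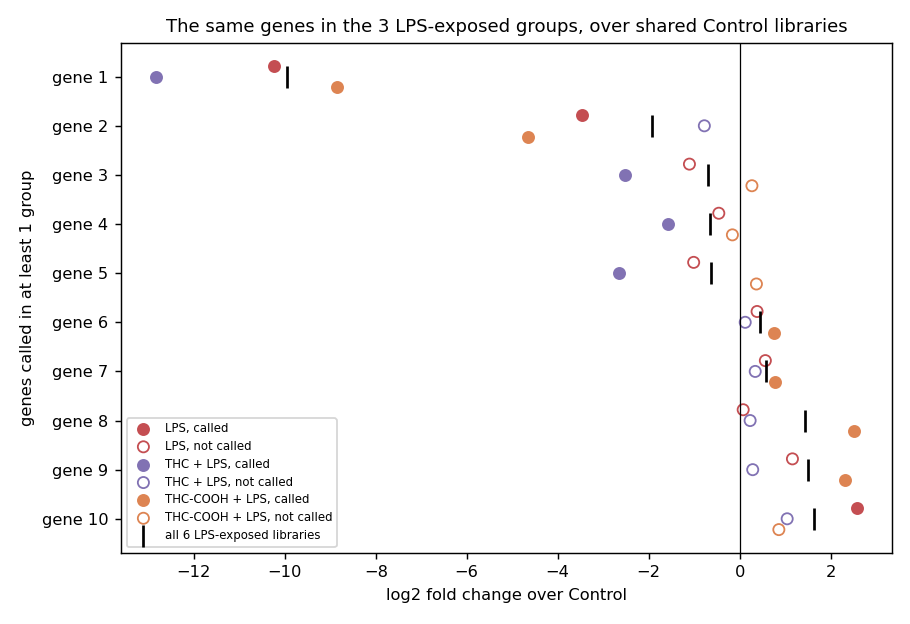
Log2 fold change over Control of the 10 genes that were DEGs in at least 1 LPS-exposed group, with 1 point per group, filled where called, and a bar for all 6 LPS-exposed libraries pooled. Gene 1 is ENSRNOG00000031590 (its THC + LPS point is fitted to libraries at 0), gene 7 is ENSRNOG00000014117, and the groups lie apart in most of the others, as in gene 2 with -3.47, -0.78 and -4.65.

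The difference among the 3 LPS-exposed groups was then tested directly. By the F test 32 genes had an adjusted p under 0.05 (0.406%), and 623 an unadjusted p under 0.05 (7.91%). DESeq2 called 9 and voom 19 of the genes tested, and the count was 3 without THC + LPS library 1, 27 without LPS library 2 and 40 without Control library 1. Group means spanned 0.273 to 4.34 on the log2 scale, with a median of 1.52, and 17 of the 32 genes had a mean count of at least 50. THC + LPS had the lowest mean in 21 of the 32 and THC-COOH + LPS the highest in 18, and 16 genes met both. The Control mean lay between the LPS-exposed means in 21. The 32 genes were chosen by a test among the same groups, so these counts describe the list and test nothing. The order of the group means was not counted over all genes tested. In 2 of the 32 the 6 LPS-exposed libraries did not overlap with Control, both of them described above, beside 8.72% of all genes tested. An unadjusted p under 0.05 in the pooled comparison was found in 9 of the 32, beside 5.71% of all genes tested. Of the genes that did not overlap with Control, 1 of the 369 higher and 1 of the 318 lower differed among the groups, beside 0.406% of all genes tested.

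**Figure D5:**
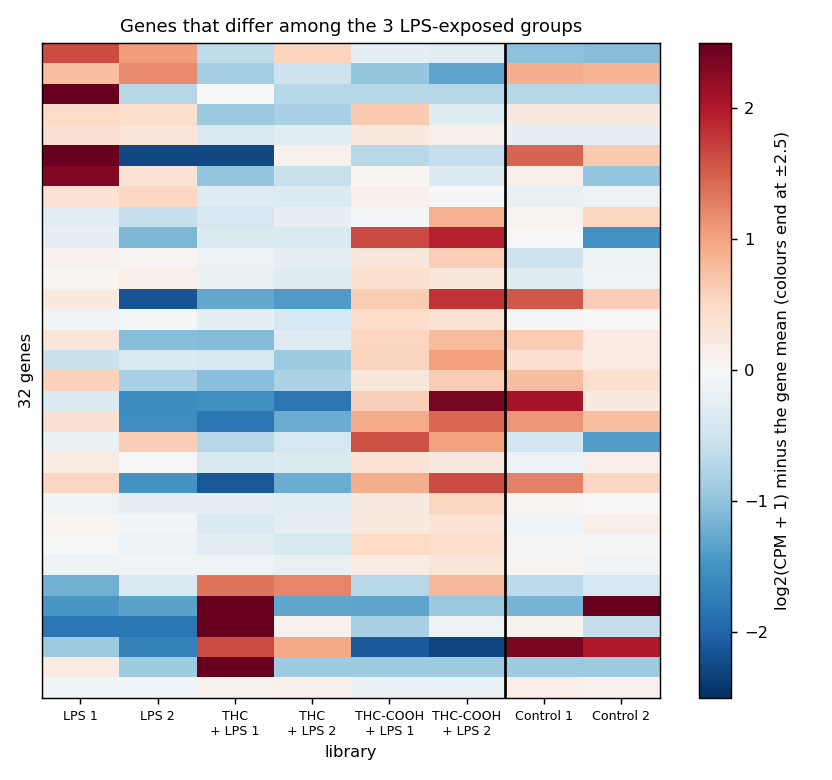
The 32 genes that differed among the 3 LPS-exposed groups (rows), with the colour giving log2(CPM + 1) minus the mean of the gene over 8 libraries (columns, LPS-exposed groups left of the line and Control right of it). In many rows THC + LPS is the lowest group (21 of 32) and THC-COOH + LPS the highest (18 of 32), with Control between the LPS-exposed means in 21, and 3 rows have over 90% of their summed CPM in a single library. The rows were chosen by the test among these groups, so these counts describe the list.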

How the data were processed

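Poly(A) RNA of 8 libraries was sequenced by bulk MARS-seq. Per the labels, the authors used bcl2fastq 2.20.0.422, cutadapt, STAR 2.7.3a, HTSeq and DESeq2 1.26.0 with the build Rnor_6.0. For the annotation release and molecular identifiers, details are not given in the sources used. The authors deposited raw counts per Ensembl gene, and a signal, which is the raw count over a size factor (0.638 to 1.84, 1 per library). Only the raw counts were tested.

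Of 9848 genes, 9 had no count and 7875 had a highest raw count above 10. Library sizes were summed over these 7875 genes, with TMM factors of 0.986 to 1.02. The pooled fit in edgeR 4.0.16 (R 4.3.3, quasi-likelihood without the robust option) had 1 coefficient for LPS exposure, 6 residual degrees of freedom and a common biological coefficient of variation of 0.106. A fit with 1 coefficient per group (4 residual degrees of freedom, 0.0904) gave each group against Control and the F test among the LPS-exposed groups. P-values were adjusted by Benjamini-Hochberg over all genes tested, and an SE is the absolute log2 fold change over the square root of F. Alternatives used DESeq2 1.42.0, limma 3.58.1 and the settings given in the closing section. The code was tested on simulated data. Figures used matplotlib 3.10.9 (Python 3.11.15).

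The comparison, the 27 gene lists (707 entries) and the rule for named genes were chosen with earlier results of these data known. The rule took DEGs, else the genes with the smallest p, and at most 2 identifiers in each direction where symbols are lacking. Because identifiers were not paired with symbols, the lists were not run. Intervals are meant to cover counting error and the spread between libraries. They use 22.9 degrees of freedom, of which 16.9 are borrowed from the spread of other genes. For a gene whose Control libraries disagree, such as the 2 pooled DEGs, they understate that spread.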

Additional observations from a re-analysis of the deposited data

Results flagged for a closer look

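Among the 6 LPS-exposed libraries, the level of ENSRNOG00000031590 in THC-COOH + LPS library 1 (3.93 CPM, 4 reads) stood far above the next, 1.14 CPM in LPS library 1, with a gap of 0.711 of the whole range. The limit for such a gap is one that about 5% of normally spread groups pass, and the 6 values here are 0 to 4 reads, which are not normally spread. Both values are near 0 against 2050 CPM in Control library 1.

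By the F test among the LPS, THC + LPS and THC-COOH + LPS groups, 32 genes differed in their change over the shared Control libraries, of which 3 had over 90% of their summed CPM in 1 library. This count was 3 without THC + LPS library 1, and 30 without the genes that had over 90% of their summed CPM and at least 50 reads in 1 library.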

How the results depend on the processing

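The log2 fold changes of the 4 named genes kept their sign under every alternative that tested them, but counts of calls and their balance did not hold. For the 2 lower genes the kept sign rested on 1 Control library each. Neither gene passed the filter of filterByExpr, so neither was tested with it. ENSRNOG00000031590 was not tested without Control library 1, nor ENSRNOG00000029996 without Control library 2. The Control library then left was at 0 CPM, so whether the direction held was not tested. The 2 pooled DEGs became 5 in a fit weighting the 3 groups equally, 0 with the filter of filterByExpr, 0 with DESeq2, 0 with voom and 137 with an unadjusted p (92 higher, 45 lower), and ran from 1 (without LPS library 2 or Control library 2) to 4 (without THC + LPS library 1) as libraries were left out. Leaving out the LPS group gave 1 and the THC + LPS group 4. Chosen after seeing the data, robust quasi-likelihood gave 0 and dropping genes with over 90% of CPM and at least 50 reads in 1 library gave 1. The 0 DEGs held in all 6 libraries became 1 with equal weights, 93 with an unadjusted p, 1 without the THC + LPS group, 1 without the THC-COOH + LPS group, and 0 to 2 as libraries were left out (2 without Control library 1, 1 without Control library 2 or THC + LPS library 1).

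The 3 DEGs of LPS became 11 with every counted gene, 1 with DESeq2, 1 with voom, 8 with no minimum fold, 247 with an unadjusted p, and 2 to 10 as libraries were left out (10 without LPS library 1), and the split of 1 higher and 2 lower became 2 and 1 with filterByExpr. The 4 of THC + LPS became 14, 1 with DESeq2, 197, 1 with robust quasi-likelihood (higher, where all 4 were lower), and 0 (without THC + LPS library 1) to 8. The 6 of THC-COOH + LPS became 14, 3 with DESeq2, 3 with voom, 11 with no minimum fold, 246, 13 with robust quasi-likelihood (6 higher, 7 lower), and 1 (without THC-COOH + LPS library 2) to 7. The 32 genes among groups became 54, 9, 19 and 238 with every gene, DESeq2, voom and an unadjusted p, and 3 to 40 as libraries were left out. The cause of these shifts was not tested.

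Over 12 pairs of same-numbered libraries the correlations, which are not those of the levels themselves, were -0.082 to 0.14. The numbers were therefore not taken to pair the libraries. With the replicate number as a block the pooled count stayed 2, LPS had 8, THC + LPS 15, THC-COOH + LPS 13 (5 higher, 8 lower) and the F test 50. Where a library was left out, its partner was assumed to vary like the others. With 2 Control libraries, changes smaller than the reach of the interval were beyond these data. That reach was a median of 0.911 on the log2 scale in the 2411 genes under 20 reads and 0.139 from 1000 reads on.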
